A study of Mus musculus with 14 samples.

Results

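The 9 genes described here belong to the bone morphogenetic protein (BMP) pathway. They are 9 of the 37991 Ensembl genes in the deposited expression files and 9 of the 16033 that passed the filter on low counts. They were listed by name, with earlier results of these data known: the inhibitor of DNA binding genes Id1 (ENSMUSG00000042745), Id2 (ENSMUSG00000020644), Id3 (ENSMUSG00000007872) and Id4 (ENSMUSG00000021379), the ligand gene Bmp4 (ENSMUSG00000021835), the feedback inhibitor genes Smad6 (ENSMUSG00000036867), Smad7 (ENSMUSG00000025880) and Bambi (ENSMUSG00000024232), and the target gene Msx2 (ENSMUSG00000021469). RNA sequencing was done on C57BL/6 mouse embryonic stem cells carrying an mCherry reporter of the mir-290 cluster and an eGFP reporter of the mir-302 cluster. In experiment B the cells were plated sparsely and kept for 5 days in 1 of 5 media, with 2 libraries per medium. F/A is the serum-free medium N2B27 to which bFGF (12 ng/ml) and activin A (20 ng/ml) were added. The other 4 media held leukemia inhibitory factor (LIF) and, as the growth protocol reads, serum, though for 2i/LIF the labels do not say so outright: L-Pro/LIF with L-proline, whose dose is not stated for these samples, VitC/LIF with vitamin C at 500 µM, 2i/LIF with the 2i inhibitors, which block the MEK and GSK3 kinases, and FBS/LIF with no addition. Experiment A gave 1 library each of cells described as positive for both reporters after L-proline at 1 mM for 5 days, after F/A (activin A at 20 ng/ml, bFGF dose not stated) for 3 and for 5 days, and at day 0, when they came from a serum and LIF culture that held 100 µM vitamin C. The vitamin C medium is therefore the starting state in experiment A and 1 of the added treatments in experiment B. All samples come from reporter cells of 1 strain, and nothing states how many clones there were or whether a medium's 2 libraries were made from different cultures, so p-values measure the spread between these libraries, which may be technical.

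BMP ligands bind paired type I and type II receptors, which phosphorylate SMAD1, SMAD5 and SMAD9. These join SMAD4 in the nucleus and switch on target genes, among which Id1, Id2 and Id3 are the best known in mouse embryonic stem cells. ID proteins carry no DNA-binding region of their own and bind E proteins, a group of basic helix-loop-helix transcription factors, keeping them off DNA. In these cells BMP4 in serum is known to act through Id genes, together with LIF, to hold back differentiation. SMAD6 and SMAD7 are inhibitory SMADs that the pathway itself induces, SMAD6 acting mainly on BMP signalling and SMAD7 on both BMP and activin signalling. BAMBI is a receptor-like membrane protein without a kinase domain that blocks signalling. MSX2 is a homeobox factor induced by BMP in many embryonic tissues.

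SMAD proteins are known to bind the short palindromes GGCGCC and GTCTAGAC, so the RefSeq promoter windows (build GRCm38.p6, 250 bases before to 30 bases after the annotated start) were searched for both. Windows of 6 of the genes (Id2, Id3, Id4, Bmp4, Smad6 and Msx2) were searched, and 3 of them held a match. Each palindrome reads the same on both strands and the pair do not overlap in these windows. Id2 (chr12:25096063-25096342, minus strand) and Id4 (chr13:48260866-48261145, plus strand) are shown because these related genes stood at opposite ends of their range in 2i/LIF, and Smad6 (chr9:64022030-64022309, minus strand) because its match lies across the start. Sequences run 5′ to 3′ along the gene's strand, with the matched letters in capitals.
Id2: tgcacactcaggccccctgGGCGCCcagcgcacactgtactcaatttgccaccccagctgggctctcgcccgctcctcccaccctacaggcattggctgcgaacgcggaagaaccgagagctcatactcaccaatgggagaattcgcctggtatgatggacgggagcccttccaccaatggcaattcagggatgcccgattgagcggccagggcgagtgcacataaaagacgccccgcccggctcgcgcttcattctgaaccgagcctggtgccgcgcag
Id4: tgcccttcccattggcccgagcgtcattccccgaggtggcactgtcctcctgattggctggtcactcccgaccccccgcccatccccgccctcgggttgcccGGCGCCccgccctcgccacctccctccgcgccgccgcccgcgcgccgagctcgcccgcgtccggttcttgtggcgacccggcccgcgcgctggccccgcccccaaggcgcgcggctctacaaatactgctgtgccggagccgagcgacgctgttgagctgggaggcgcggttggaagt
Smad6: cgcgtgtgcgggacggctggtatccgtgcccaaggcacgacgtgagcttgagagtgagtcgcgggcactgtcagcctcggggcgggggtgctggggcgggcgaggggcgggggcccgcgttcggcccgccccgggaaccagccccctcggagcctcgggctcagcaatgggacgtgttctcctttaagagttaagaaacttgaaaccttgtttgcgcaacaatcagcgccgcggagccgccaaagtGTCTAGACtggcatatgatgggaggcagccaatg
In Id2 the first letter of GGCGCC lies 231 bases before the annotated start, and in Id4 it lies 148 bases before. GTCTAGAC begins 4 bases before the start of Smad6 and runs across it. Of all 32851 windows of this length, 10.95% held GGCGCC and 0.1918%, or 63 windows, held GTCTAGAC. The share of G and C was 62.86% in the Id2 window, 74.29% in Id4 and 65.36% in Smad6, against a median of 52.5% over all windows. A match describes letters only, and no binding was measured.

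Mapped fragments in experiment B ranged from 17778399 to 26354444 per library, except for 6937945 in F/A replicate 1, and counts in experiment A from 33162689 to 39711061. Levels are TMM-scaled CPM, with the standard deviation (SD) over the 2 libraries of a medium. A change was called where the Benjamini-Hochberg adjusted p of edgeR's quasi-likelihood F test, adjusted over all 16033 genes, was under 0.05. The 6 pluripotency markers Pou5f1, Sox2, Nanog, Sall4, Dppa5a and Utf1 were detected in every library of experiment B, with summed levels of 809 to 915 CPM in F/A, 1362 to 1387 in L-Pro/LIF, 3212 to 3293 in VitC/LIF, 3989 to 3994 in 2i/LIF and 3381 to 3509 in FBS/LIF.

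The 4 Id genes did not move as a block across the media. Id1 and Id2 were high in L-Pro/LIF, VitC/LIF and FBS/LIF and lowest in 2i/LIF, Id3 was lowest in F/A and high elsewhere, and Id4 was highest in 2i/LIF and lowest in F/A. Id4 spanned the widest range of the 9 genes between its highest and lowest medium, 25.6-fold, followed by Msx2 at 9.65-fold, Id1 at 9.48-fold and Id2 at 9.27-fold. Bambi (1.55-fold) and Smad6 (1.83-fold) spanned the narrowest. Levels per length are given as FPKM, here the TMM-scaled CPM divided by the effective length in kilobases, not the authors' own values. By this measure Id1 at 40.2, Id3 at 36.7 and Id2 at 34.1 were the most abundant of the 9 genes in FBS/LIF. Smad7 at 17.3, Bmp4 at 4.11 and Id4 at 3.36 came next. Smad6 at 2.50, Bambi at 2.70 and Msx2 at 0.146 FPKM stood lowest there. In 2i/LIF the order was another one, with Id3 at 42.4 and Smad7 at 30.1 FPKM first, Id4 at 11.2 next, and Id1 at 4.23 and Id2 at 3.67 FPKM behind Bmp4 at 5.51.

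**Figure D1:**
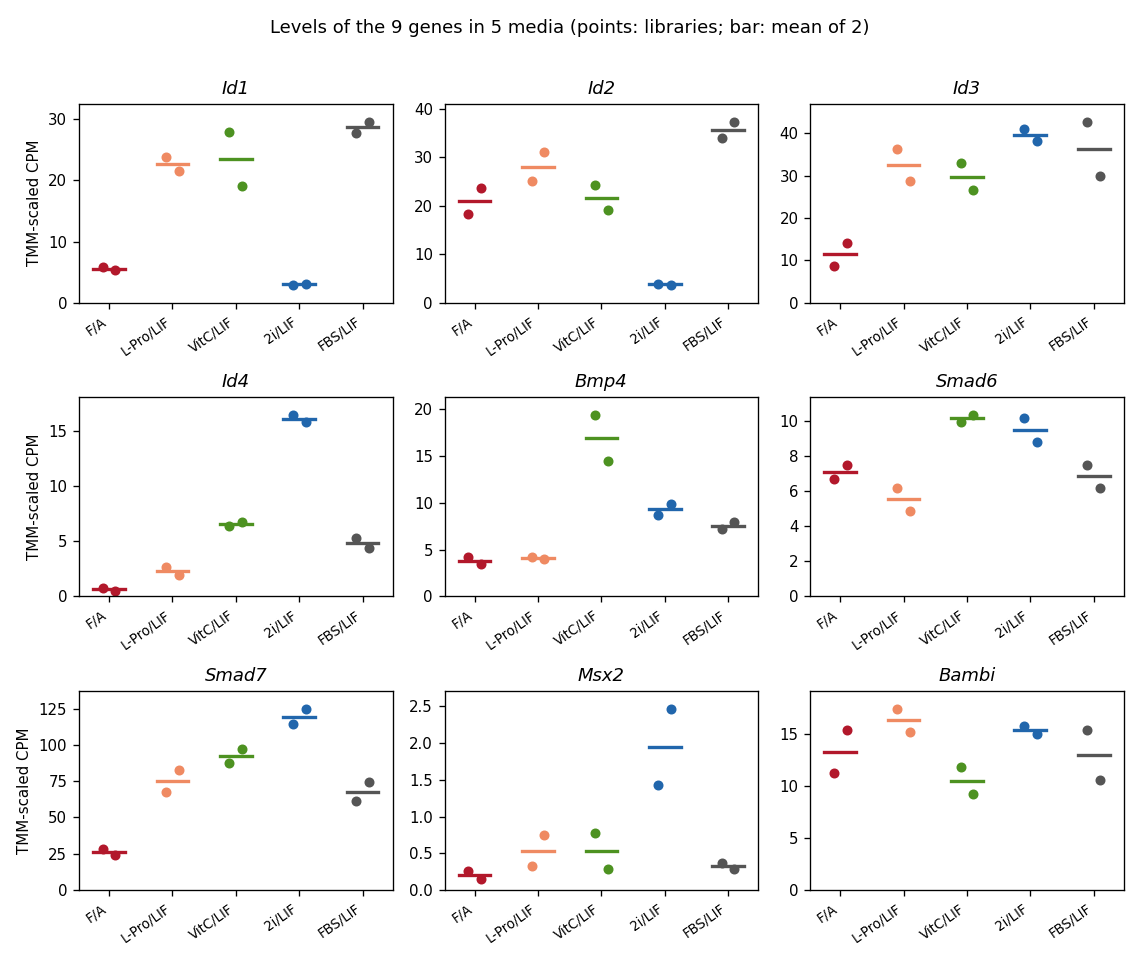
TMM-scaled CPM of each gene on a linear axis from 0, by medium, with 1 point per library and a bar at the mean of 2. Id1 and Id2 sit lowest in 2i/LIF, between 2.91 and 3.92 CPM, the medium in which Id4, Smad7 and Msx2 sit highest.

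Id1 stood at 5.83 and 5.30 CPM in F/A, at 23.8 and 21.5 in L-Pro/LIF, at 27.9 and 19.1 in VitC/LIF, at 2.91 and 3.14 in 2i/LIF and at 27.8 and 29.6 in FBS/LIF. Both F/A and both 2i/LIF libraries lay below all 6 libraries of the other media, and F/A did not overlap 2i/LIF. In order of level, FBS/LIF, VitC/LIF and L-Pro/LIF did not differ from their neighbours beyond the spread (adjusted p = 0.683 and 0.852), while F/A was lower than L-Pro/LIF by a log2 change of -2.03 (SE 0.20, adjusted p = 0.000499) and higher than 2i/LIF by 0.87 (SE 0.21, adjusted p = 0.00715).

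Id2 showed a different order, with only 2i/LIF apart from its neighbour. It had 18.4 and 23.7 CPM in F/A, 25.04 and 31.0 in L-Pro/LIF, 24.2 and 19.1 in VitC/LIF, 3.92 and 3.76 in 2i/LIF, and 33.9 and 37.3 in FBS/LIF. F/A was higher than 2i/LIF by a log2 change of 2.46 (SE 0.20, adjusted p = 1.43e-05), and no other neighbouring pair of media differed beyond the spread for this gene (adjusted p between 0.150 and 0.890).

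Id3 was at 8.62 and 14.2 CPM in F/A, at 36.4 and 28.6 in L-Pro/LIF, at 32.9 and 26.5 in VitC/LIF, at 41.0 and 38.1 in 2i/LIF and at 42.8 and 30.04 in FBS/LIF. The F/A libraries lay below all 8 others, and FBS/LIF overlapped each of the other media with LIF. The lowest of those media was VitC/LIF, and F/A was lower than it by a log2 change of -1.35 (SE 0.26, adjusted p = 0.00326).

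Id4 is the family member with the most distinct levels, differing between 3 of its 4 neighbouring pairs of media. It had 0.761 and 0.50 CPM in F/A (6 and 10 counts), 2.66 and 1.94 in L-Pro/LIF, 6.40 and 6.71 in VitC/LIF, 16.4 and 15.8 in 2i/LIF, and 5.27 and 4.36 in FBS/LIF. No 2 media overlapped. VitC/LIF was lower than 2i/LIF (log2 change -1.30, SE 0.23, adjusted p = 0.00423), L-Pro/LIF was lower than FBS/LIF (-1.07, SE 0.24, adjusted p = 0.0134) and F/A was lower than L-Pro/LIF (-1.94, SE 0.30, adjusted p = 0.00469). VitC/LIF and FBS/LIF did not differ beyond the spread (0.44, SE 0.23, adjusted p = 0.562).

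Bmp4 encodes the ligand itself. Its level was 4.18 and 3.45 CPM in F/A, 4.22 and 4.03 in L-Pro/LIF, 19.4 and 14.5 in VitC/LIF, 8.69 and 9.92 in 2i/LIF, and 7.21 and 7.92 in FBS/LIF. VitC/LIF lay above every other library, and the 4 libraries of F/A and L-Pro/LIF lay below the rest and overlapped each other. VitC/LIF was higher than 2i/LIF (log2 change 0.86, SE 0.21, adjusted p = 0.0161) and L-Pro/LIF lower than FBS/LIF (-0.87, SE 0.21, adjusted p = 0.0173), while 2i/LIF against FBS/LIF (0.30, SE 0.21, adjusted p = 0.325) and F/A against L-Pro/LIF (-0.13, SE 0.22, adjusted p = 0.695) did not pass.

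The inhibitor genes followed separate courses. Smad7 was the most abundant of the 3 per length, with 28.5 and 23.8 CPM in F/A, 67.2 and 82.6 in L-Pro/LIF, 87.8 and 96.9 in VitC/LIF, 114 and 125 in 2i/LIF, and 61.1 and 74.2 in FBS/LIF. Its F/A libraries were the lowest and its 2i/LIF libraries the highest, and the step between FBS/LIF and F/A passed, whereas the 3 steps above it did not (adjusted p between 0.116 and 0.541). Smad6 lay between 4.90 CPM in an L-Pro/LIF library and 10.4 CPM in a VitC/LIF library, and none of its 4 neighbouring pairs differed beyond the spread. Bambi lay between 9.20 CPM in a VitC/LIF library and 17.4 CPM in an L-Pro/LIF library, again with no neighbouring pair that differed. Msx2 was near the limit of detection, with 2 and 3 counts in F/A, 7 and 19 in L-Pro/LIF, 14 and 5 in VitC/LIF, 27 and 44 in 2i/LIF, and 8 and 6 in FBS/LIF. Only its step between 2i/LIF and L-Pro/LIF passed, with L-Pro/LIF lower by a log2 change of -1.83 (SE 0.60, adjusted p = 0.0343). In all, 11 of the 36 neighbouring pairs of media differed over the 9 genes. Across the 10 fixed pairings of media the share of all genes called lay between 0.674% and 58.4%. That share is no like-for-like background, since neighbours were set by ordering each gene's own means.

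F/A against FBS/LIF asks how the genes stand in serum-free medium with activin A and bFGF relative to serum and LIF, and here 6 of the 9 genes fell and none rose. Of the 4 Id genes, Id4 fell by 8.03-fold, Id1 by 5.18-fold and Id3 by 3.12-fold, and Id2 fell by 1.68-fold. Bmp4 fell by 2.00-fold and Smad7 by 2.60-fold. The log2 changes were -3.01 for Id4 (SE 0.30, adjusted p = 0.00011), -2.37 for Id1 (SE 0.20, adjusted p = 4.42e-05), -1.64 for Id3 (SE 0.26, adjusted p = 0.00144), -0.75 for Id2 (SE 0.18, adjusted p = 0.00929), -1.001 for Bmp4 (SE 0.22, adjusted p = 0.0065) and -1.38 for Smad7 (SE 0.16, adjusted p = 0.000253). For each of the 6 genes both F/A libraries lay below both FBS/LIF libraries, as they did for Msx2, which was not called. The share of all genes that separate in this way is not given here. Smad6 (7.11 ± 0.55 CPM in F/A and 6.86 ± 0.95 in FBS/LIF, SD, n = 2 each) and Bambi (13.3 ± 2.9 and 13.0 ± 3.4 CPM, SD, n = 2 each) had log2 changes of 0.06 (SE 0.21) and 0.05 (SE 0.23), and Msx2 one of -0.79 (SE 0.81). In this comparison 46.4% of all genes were called and 22% were called lower. The median log2 change was -1.001 over the 9 genes and 0.05 over all genes tested. The same 6 genes were called in every alternative run, that without the thinly sequenced F/A replicate 1 included.

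Among other genes of the pathway, more were higher than lower in F/A. Of 61 further pathway genes on lists chosen with earlier results of these data known, 50 were tested, 28 were higher and 4 lower, against 24.4% of all genes higher and 22% lower. All 3 tested signal transducers rose, Smad4 by a log2 change of 1.39, Smad5 by 1.27 and Smad1 by 1.24 (SE 0.19, 0.17 and 0.16, adjusted p = 0.00062, 0.000502 and 0.000436). Smad1 stood at 31.9 ± 2.8 CPM in F/A and 13.5 ± 2.4 in FBS/LIF (SD, n = 2 each). Of the 10 tested receptors and co-receptors 8 rose and none fell, among them the co-receptor genes Rgma (log2 change 3.04, SE 0.43, adjusted p = 0.000749) and Rgmb (2.01, SE 0.22, adjusted p = 0.000176), the type II receptor gene Bmpr2 (1.80, SE 0.39, adjusted p = 0.0065) and the type I receptor gene Acvr1 (1.79, SE 0.34, adjusted p = 0.00353). Bmpr2 lost the call without FBS/LIF replicate 1 (adjusted p = 0.0536). In F/A, replicate 1 read higher than replicate 2 for Rgma (7.86 and 3.90 CPM), Bmpr2 (39.6 and 15.9) and Acvr1 (10.4 and 5.20). For these genes both F/A libraries lay above both FBS/LIF libraries. Eng at 4.48 ± 1.4 CPM in F/A and 5.29 ± 0.41 in FBS/LIF (SD, n = 2 each) did not pass. Among 8 tested ligands, Bmp2 rose to 4.06 ± 0.72 CPM in F/A, against 0.420 ± 0.20 in FBS/LIF, and Bmp7 to 9.86 ± 0.94 CPM, against 1.05 ± 0.31 (SD, n = 2 each). Gdf3, a ligand gene of the same superfamily that is high in naive cells, fell to 5.89 ± 1.2 CPM in F/A, against 120 ± 1.8 in FBS/LIF (SD, n = 2 each), a log2 change of -4.32 (SE 0.17, adjusted p = 6.34e-07).

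Antagonist genes rose as well, with 7 of 11 tested higher in F/A and none lower. Fst, whose product follistatin binds activin and some BMPs, stood at 265 ± 5.6 CPM in F/A and 14.0 ± 1.1 CPM in FBS/LIF (SD, n = 2 each), a log2 change of 4.24 (SE 0.20, adjusted p = 1.61e-06). Cer1, the gene of a secreted antagonist of BMP and Nodal made in anterior endoderm, had no counts in FBS/LIF and was at least 61.1-fold higher in F/A, counted against a floor of 3 counts over the 2 FBS/LIF libraries. The antagonist list is of secreted proteins apart from Tob1, and the list of 6 other inhibitors is of intracellular proteins apart from the secreted Nbl1. Of these 6, Skil, a co-repressor gene, fell by a log2 change of 0.57 (SE 0.12, adjusted p = 0.00595), and Nbl1 and Smurf2 rose, but Nbl1 lost the call without F/A replicate 1 or either FBS/LIF library (adjusted p up to 0.0958) and Smurf2 without either FBS/LIF library (up to 0.0754). E protein genes, the binding partners of ID proteins, were higher for Tcf4 (1.62, SE 0.24, adjusted p = 0.00104) and Tcf12 (1.40, SE 0.11, adjusted p = 3.17e-05), while Tcf3, the E2A gene, stood at 81.9 ± 29 CPM in F/A and 101 ± 7.4 in FBS/LIF (SD, n = 2 each) and did not pass. Among 9 other reported BMP targets, 3 were higher and 2 lower, with Cdx2 at 5.90 ± 0.28 CPM in F/A and 1.23 ± 0.22 in FBS/LIF and Tbx3 at 1.32 ± 0.46 and 20.2 ± 5.1 CPM (SD, n = 2 each). Leaving out 1 library at a time gave between 21 and 25 pathway genes higher and between 4 and 7 lower.

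**Figure D2:**
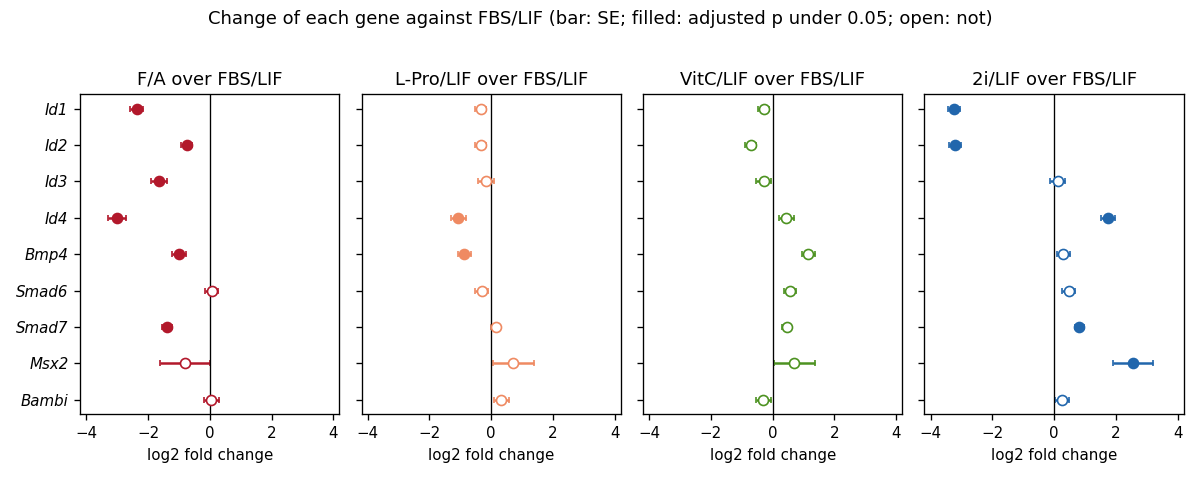
Log2 fold change of each gene in 4 media over FBS/LIF, with the SE as a bar, filled points where the adjusted p was under 0.05. F/A has 6 filled points, all below 0, and 2i/LIF has 5, with Id1 and Id2 below 0 and Id4, Smad7 and Msx2 above. The 4 panels share the FBS/LIF libraries.

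Markers of other cell types moved with this comparison too. The 4 primed epiblast markers summed to between 865 and 1042 CPM in F/A and to 711 CPM in both FBS/LIF libraries, with 3 called higher. The 4 early mesoderm markers summed to between 410 and 433 CPM in F/A and between 3.70 and 4.17 CPM in FBS/LIF, and all 4 were called higher. The 7 primitive endoderm markers summed to between 39.1 and 55.3 CPM in F/A and between 6.70 and 15.6 CPM in FBS/LIF, with 4 higher, and 5 of the 6 pluripotency markers were lower. Of the 8 fibroblast markers 5 were higher, at sums of 15.3 to 21.9 CPM in F/A and 3.56 to 6.29 in FBS/LIF, where 2 were at 0. The part of these cell states in the fall of the Id genes was not tested. Fewer cells of a type and less RNA per cell cannot be told apart in bulk samples.

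2i/LIF against FBS/LIF split the family. Id1 fell by 9.46-fold and Id2 by 9.26-fold, Id4 rose by 3.34-fold, and Id3 did not pass, at 39.6 ± 2.0 CPM in 2i/LIF and 36.4 ± 9.0 in FBS/LIF (SD, n = 2 each). Id1 had a log2 change of -3.24 (SE 0.21, adjusted p = 1.55e-05), Id2 one of -3.21 (SE 0.20, adjusted p = 1.3e-05), Id4 one of 1.74 (SE 0.24, adjusted p = 0.000744) and Id3 one of 0.12 (SE 0.25, adjusted p = 0.771). Smad7 rose to 119 ± 7.5 CPM in 2i/LIF, against 67.7 ± 9.2 in FBS/LIF (SD, n = 2 each), a log2 change of 0.82 (SE 0.15, adjusted p = 0.00414). Msx2 rose on few counts, by a log2 change of 2.56 (SE 0.63, adjusted p = 0.0156), and lost the call without FBS/LIF replicate 1, FBS/LIF replicate 2 or 2i/LIF replicate 2 (adjusted p up to 0.106). Bmp4 (0.30, SE 0.21), Smad6 (0.47, SE 0.20) and Bambi (0.25, SE 0.23) did not pass. In all, 5 of the 9 genes were called, 3 higher and 2 lower, where 30.4% of all genes were called, 12.5% higher and 17.9% lower.

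Of 50 further pathway genes tested, 7 were higher and 11 lower in 2i/LIF, where 12.5% of all genes were higher and 17.9% lower, and counts were between 5 and 6 higher and between 6 and 9 lower with 1 library left out. Other targets were called in both directions. Tbx3, a naive-state transcription factor gene and reported BMP target, stood at 157 ± 11 CPM in 2i/LIF and 20.2 ± 5.1 in FBS/LIF (SD, n = 2 each), with a log2 change of 2.96 (SE 0.26, adjusted p = 6.71e-05). Zfp423, the gene of a zinc finger cofactor of BMP SMADs, stood at 1.19 ± 0.93 CPM in 2i/LIF and 24.7 ± 3.0 in FBS/LIF (SD, n = 2 each), with a log2 change of -4.38 (SE 0.48, adjusted p = 0.000223). Cdx2 rose by 2.67 (SE 0.38, adjusted p = 0.000947). Skil had a log2 change of -2.37 (SE 0.13, adjusted p = 6.69e-06) and fell to 88.3 ± 2.4 CPM in 2i/LIF, against 458 ± 33 in FBS/LIF (SD, n = 2 each). None of the 3 tested signal transducers and none of the E proteins passed, with Smad4 at 42.2 ± 3.6 CPM in 2i/LIF and 41.9 ± 11 in FBS/LIF and Smad5 at 35.8 ± 2.3 and 41.6 ± 2.0 CPM (SD, n = 2 each). Of the receptors, Bmpr1b fell, with a log2 change of -2.05 (SE 0.39, adjusted p = 0.00428). Rgma (1.67, SE 0.42, adjusted p = 0.0168) and Eng (1.03, SE 0.28, adjusted p = 0.022) rose. Rgma lost the call without either 2i/LIF library or FBS/LIF replicate 2, and Eng without any 1 of the 4 libraries (adjusted p up to 0.109 and 0.114). Of the ligands Bmp7 rose by 1.63 (SE 0.31, adjusted p = 0.0047). Of 11 tested antagonists 1 was higher and 5 were lower. Among the lower ones, Chrdl1 had no counts in 2i/LIF and stood at 0.418 ± 0.19 CPM in FBS/LIF (SD, n = 2 each). It was at least 5.13-fold lower, counted against a floor of 3 counts over the 2i/LIF libraries. The 4 primed epiblast markers, all called lower, summed to 130 to 140 CPM in 2i/LIF, where 1 was at 0, and to 711 CPM in both FBS/LIF libraries, and their part in these changes was not tested.

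**Figure D3:**
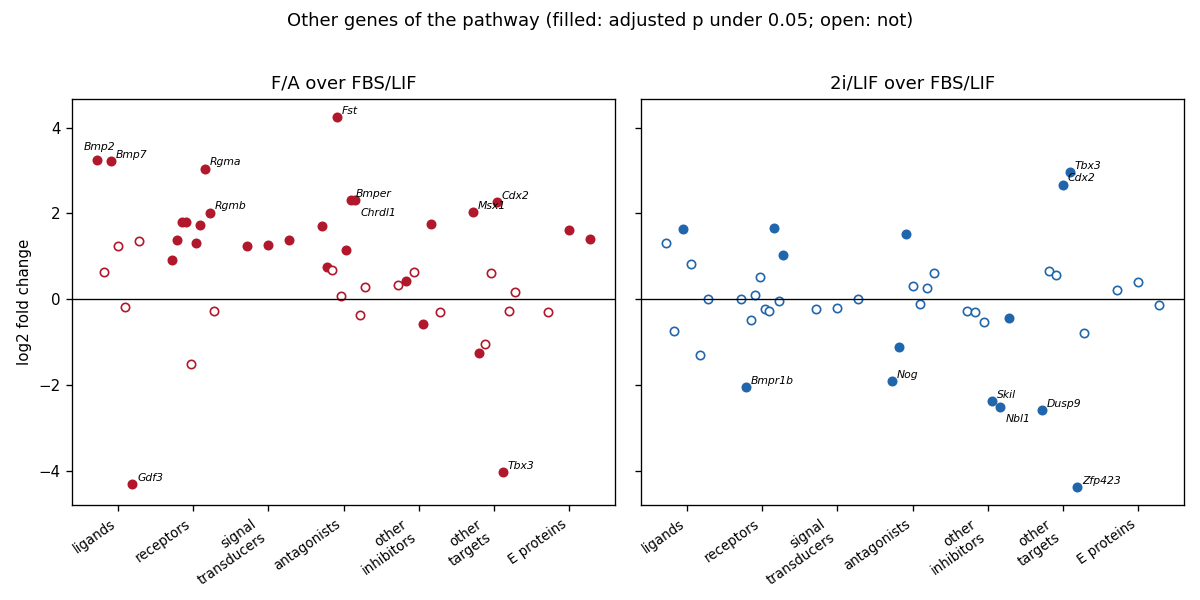
Log2 fold change of further pathway genes in F/A and in 2i/LIF over FBS/LIF, by list, filled where the adjusted p was under 0.05, leaving out genes with 3 or fewer counts summed over 1 of the media. Signal transducers and receptors lie mostly above 0 in F/A, whereas in 2i/LIF the filled points fall on both sides.

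L-Pro/LIF against FBS/LIF gave 2 called genes of the 9, both lower, where 24% of all genes were called and 10.3% were lower. Id4 fell to 2.30 ± 0.51 CPM in L-Pro/LIF, against 4.81 ± 0.64 in FBS/LIF, and Bmp4 to 4.12 ± 0.13 CPM, against 7.57 ± 0.50 (SD, n = 2 each). Neither call was stable to leaving out a library. Id4 was lost when L-Pro/LIF replicate 2 was left out, and likewise FBS/LIF replicate 1 (adjusted p = 0.0962 and 0.0891), and Bmp4 without any 1 of the 4 libraries (adjusted p between 0.0586 and 0.0918), though both log2 changes stayed negative. Id1, Id2 and Id3 had log2 changes of -0.34 (SE 0.18), -0.34 (SE 0.17) and -0.16 (SE 0.25), Smad7 0.15 (SE 0.15), Smad6 -0.31 (SE 0.20), Bambi 0.33 (SE 0.23) and Msx2 0.72 (SE 0.65), none of them past the threshold. Of 50 further pathway genes tested, 11 were higher and 2 lower, where 13.7% of all genes were higher and 10.3% lower. In fits with 1 library left out fewer of them were called, as was so over all genes. Those named next were called in each of these fits. Bmp7 stood at 5.50 ± 1.2 CPM in L-Pro/LIF and 1.05 ± 0.31 in FBS/LIF, Fst at 38.9 ± 4.3 and 14.0 ± 1.1 CPM, the co-receptor gene Rgmb at 15.5 ± 0.52 and 5.38 ± 1.3 CPM, and Tbx3 at 3.52 ± 0.83 and 20.2 ± 5.1 CPM (SD, n = 2 each). Of the 6 pluripotency markers 5 were lower in L-Pro/LIF, and all 4 primed epiblast markers and 3 of 4 early mesoderm markers were higher, and their part in these changes was not tested.

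VitC/LIF against FBS/LIF gave no called gene among the 9, where 0.674% of all genes were called, 0.362% higher and 0.312% lower. Bmp4 came closest, at 16.9 ± 3.5 CPM in VitC/LIF and 7.57 ± 0.50 in FBS/LIF (SD, n = 2 each), a log2 change of 1.16 (SE 0.21, adjusted p = 0.0534). Unadjusted, 4 genes had a p under 0.05 in edgeR's quasi-likelihood test, namely Bmp4, Smad6 and Smad7 with higher levels in VitC/LIF and Id2 with a lower one. The share of all genes under this unadjusted threshold is not given here. The 0.674% above is for adjusted p, so the count of 4 has no background beside it. DESeq2 called 2 genes, Bmp4 (adjusted p = 0.000694) and Id2 (adjusted p = 0.0425), and also called more of all genes than edgeR did. Bmp4 also passed with RLE scaling (adjusted p = 0.0494), without the filter on low counts (0.0249) and on unique hits (0.0173), so that its call depended on the procedure. Over the 9 genes the median log2 change was 0.44, and over all genes tested -0.01. Of the further pathway genes Tbx3 was higher, at 58.6 ± 12 CPM in VitC/LIF and 20.2 ± 5.1 in FBS/LIF, and Fst and Skil were lower, at 6.47 ± 1.8 and 14.0 ± 1.1 CPM for Fst and 261 ± 0.82 and 458 ± 33 CPM for Skil (SD, n = 2 each), and none of the 3 was called with any 1 library left out.

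The series title sets L-proline against vitamin C, and between these media Bmp4 differed most of the 9 genes. It fell to 4.12 ± 0.13 CPM in L-Pro/LIF, against 16.9 ± 3.5 in VitC/LIF (SD, n = 2 each), a 4.10-fold difference (log2 change -2.03, SE 0.21, adjusted p = 0.000204). Id4 fell by 2.85-fold (log2 change -1.51, SE 0.24, adjusted p = 0.00193) and Smad6 by 1.83-fold (-0.88, SE 0.20, adjusted p = 0.012). The media did not overlap for Bmp4, Id4 and Smad6, nor for Id2, Smad7 and Bambi, which were not called. Smad6 lost the call without VitC/LIF replicate 1, VitC/LIF replicate 2 or L-Pro/LIF replicate 2 (adjusted p between 0.0556 and 0.0903). Id1 (22.6 ± 1.6 CPM in L-Pro/LIF and 23.5 ± 6.2 in VitC/LIF), Id2 (28.03 ± 4.2 and 21.7 ± 3.6 CPM) and Id3 (32.5 ± 5.5 and 29.7 ± 4.5 CPM, SD, n = 2 each) did not pass, with log2 changes of -0.06, 0.37 and 0.13 (SE 0.18, 0.18 and 0.25). Of the 9 genes 3 were called, all lower, where 29.8% of all genes were called, 16.8% higher and 13% lower, and the median log2 change was -0.06 over the 9 genes and 0.02 over all.

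Of 50 further pathway genes, 16 were higher and 2 lower in L-Pro/LIF than in VitC/LIF, where 16.8% of all genes were higher and 13% lower. The rest were called in neither direction. In fits with 1 library left out fewer were called, as was so over all genes. Of 11 tested antagonist genes 4 were higher and 1 was lower. Nog, whose product noggin binds BMP4 directly, and Fst were among the higher ones. Nog stood at 2.88 ± 0.33 CPM in L-Pro/LIF and 0.256 ± 0.13 in VitC/LIF (log2 change 3.46, SE 0.46, adjusted p = 0.000695), and Fst at 38.9 ± 4.3 and 6.47 ± 1.8 CPM (2.59, SE 0.19, adjusted p = 3.12e-05; SD, n = 2 each). Bmpr1a, a type I BMP receptor gene, stood at 130 ± 4.6 CPM in L-Pro/LIF and 81.3 ± 4.8 in VitC/LIF (SD, n = 2 each; log2 change 0.68, SE 0.12, adjusted p = 0.00322). Tbx3 fell, with a log2 change of -4.05 (SE 0.28, adjusted p = 2.24e-05). All 4 primed epiblast markers were higher and 4 of 6 pluripotency markers lower in L-Pro/LIF. Early mesoderm markers summed to 55.4 to 66.8 CPM in L-Pro/LIF and 3.59 to 3.70 in VitC/LIF, with 3 of 4 higher, and fibroblast markers to 18.3 to 18.8 and 7.23 to 8.28 CPM, with 3 of 8 higher. Of 6 trophoblast markers 2 were higher and 1 lower, but their sum was lower in L-Pro/LIF. It was 32.5 to 33.2 CPM in L-Pro/LIF and 87.7 to 94.5 in VitC/LIF. The part of these markers in the differences was not tested.

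F/A against L-Pro/LIF compared the 2 media with the lowest summed level of the 6 pluripotency markers, though Utf1 alone was lowest in 2i/LIF. Of the 9 genes 4 were called, all lower in F/A, where 22% of all genes were called and 10.9% were lower. Id1 fell by 4.09-fold (log2 change -2.03, SE 0.20, adjusted p = 0.000499), Id4 by 3.83-fold (-1.94, SE 0.30, adjusted p = 0.00469), Smad7 by 2.87-fold (-1.52, SE 0.16, adjusted p = 0.000715) and Id3 by 2.79-fold (-1.48, SE 0.26, adjusted p = 0.00777). Id3 lost the call without L-Pro/LIF replicate 1 (adjusted p = 0.0603) and Id4 in a fit of the 4 libraries alone (adjusted p = 0.0728). Id2, at 21.0 ± 3.8 CPM in F/A and 28.03 ± 4.2 in L-Pro/LIF (SD, n = 2 each), did not pass (adjusted p = 0.127), but passed without F/A replicate 2 (adjusted p = 0.0249). Bmp4 stood at 3.82 ± 0.52 CPM in F/A and 4.12 ± 0.13 in L-Pro/LIF (SD, n = 2 each), and its log2 change of -0.13 (SE 0.22, adjusted p = 0.695) did not pass. Of 50 further pathway genes tested, 15 were higher and 4 lower in F/A, where 11.1% of all genes were higher and 10.9% lower. In fits with 1 library left out these counts moved up or down, as did those over all genes. Without F/A replicate 1 the higher ones were 7 genes. Fst at 265 ± 5.6 CPM in F/A and 38.9 ± 4.3 in L-Pro/LIF, Smad5 at 101 ± 26 and 45.3 ± 0.48 CPM, and Gdf3 at 5.89 ± 1.2 and 75.1 ± 1.6 CPM (SD, n = 2 each) were called in each of these fits. Early mesoderm markers summed to between 410 and 433 CPM in F/A and between 55.4 and 66.8 CPM in L-Pro/LIF, and their part was not tested.

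The other pairings of media show the widest contrasts for single genes. F/A against 2i/LIF gave 7 called genes of 9, Id1 and Id2 higher and Id3, Id4, Bmp4, Smad7 and Msx2 lower, where 58.4% of all genes were called, 32% higher and 26.4% lower. Id4 was 26.9-fold lower in F/A in that fit (log2 change -4.75, SE 0.30, adjusted p = 3.96e-06), and Id2 5.51-fold higher. L-Pro/LIF against 2i/LIF also gave 7, where 44.6% of all genes were called, 25.3% higher and 19.3% lower, with Id1 (log2 change 2.90, SE 0.20, adjusted p = 9.17e-06) and Id2 (2.87, SE 0.20, adjusted p = 7.89e-06) higher and Id4 (-2.81, SE 0.25, adjusted p = 3.3e-05) lower. VitC/LIF against 2i/LIF gave 4, where 24.5% of all genes were called, 14.9% higher and 9.62% lower, with Id1, Id2 and Bmp4 higher and Id4 lower. F/A against VitC/LIF gave 5, all lower, where 50.5% of all genes were called, 26.8% higher and 23.7% lower, namely Id1, Id3, Id4, Bmp4 and Smad7.

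Levels of the 9 genes were compared with each other and with other genes over the 10 libraries of experiment B, as a description, since the libraries share media and the points fall into groups by medium. Pearson's r of log2(CPM + 0.5) was 0.90 between Id4 and Smad7, 0.83 between Id1 and Id2, 0.83 between Id3 and Smad7, and -0.81 between Id2 and Msx2. Among 7100 other genes with a mean of at least 4 log2 CPM, those most like Id1 included Rexo2 (r = 0.969), Serpini1 (0.967), Nabp1 (0.959) and Col18a1 (0.958). Col18a1, a collagen gene, averaged 220.1 CPM in F/A, 436 in L-Pro/LIF, 482 in VitC/LIF, 219 in 2i/LIF and 598 in FBS/LIF. Most like Bmp4 were Acadsb (r = 0.973), Mcam (0.965), Fam129a (0.952), Hdac6 (0.951) and Zfp991 (0.948). Mcam, a cell adhesion molecule gene, averaged 27.0 CPM in F/A, 25.6 in L-Pro/LIF, 95.96 in VitC/LIF, 69.4 in 2i/LIF and 44.4 in FBS/LIF.

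In experiment A all 4 Id genes stood higher and Bmp4 lower after L-proline than at day 0, with 1 library per condition and so without a test. Against the day 0 library, which had vitamin C at 100 µM, 5 of the 9 genes were past 2-fold higher in L-Pro day 5 and 1 past 2-fold lower, where 40.4% of 17794 genes were past 2-fold, 22.4% higher and 18.1% lower. Id2 had 4819 counts in L-Pro day 5 and 141 at day 0, or 122 and 4.19 CPM, a 29.2-fold difference. Its log2 difference was 4.87, with a 95% interval of 4.63 to 5.12 that, like all intervals of experiment A, covers counting error only. Id1 stood at 115 CPM in L-Pro day 5 and 19.0 at day 0 (6.04-fold), Id3 at 63.0 and 16.6 CPM (3.80-fold), and Id4 at 4.32 and 1.37 CPM (3.16-fold). Msx2 had 82 and 28 counts, a log2 difference of 1.32 (interval 0.69 to 2.00). Bmp4 had 129 counts in L-Pro day 5 and 673 at day 0, or 3.28 and 20.0 CPM, which is 6.10-fold lower. Smad7 was at 60.8 CPM in L-Pro day 5 and 87.9 at day 0, Bambi at 12.7 and 7.31 CPM, and Smad6 at 3.76 and 3.92 CPM with a log2 difference of -0.06 (interval -0.41 to 0.29).

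**Figure D4:**
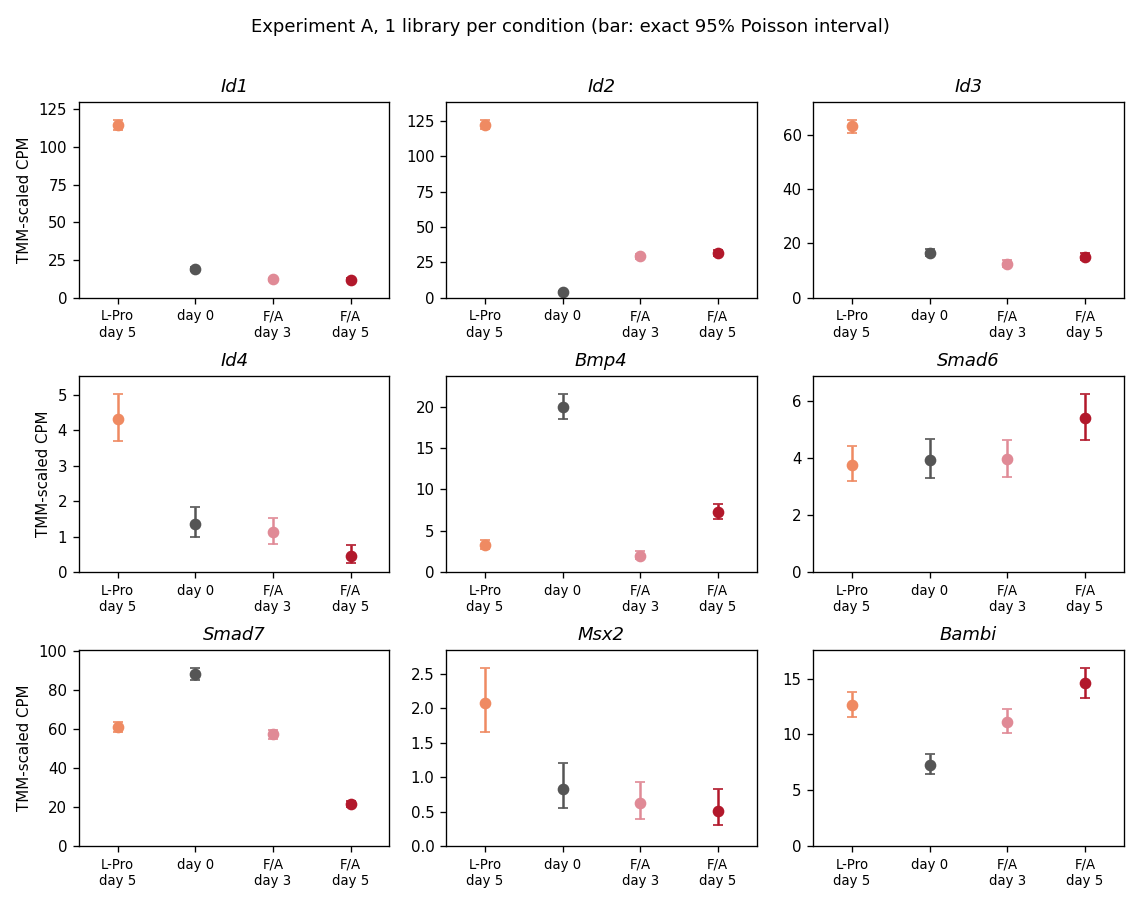
TMM-scaled CPM of each gene in the single libraries of experiment A on a linear axis from 0, with exact 95% Poisson intervals. Id1, Id2 and Id3 stand highest in L-Pro day 5, at 115, 122 and 63.0 CPM, and Bmp4 highest at day 0, at 20.0 CPM.

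Over the F/A time course, day 0 to day 3 to day 5, Bmp4 was lowest at day 3, Smad7 was lowest at day 5, and Id2 was higher at both later times than at day 0. Bmp4 stood at 20.0 CPM at day 0, 1.98 at day 3 and 7.28 at day 5, and between day 3 and day 5 its counts were 73 and 239. Smad7 stood at 87.9, 57.2 and 21.4 CPM, Id2 at 4.19, 29.4 and 31.8 CPM, and Id1 at 19.0, 12.3 and 12.0 CPM at days 0, 3 and 5. Id3 stood at 16.6, 12.5 and 15.0 CPM and Bambi at 7.31, 11.1 and 14.6 CPM. Id4 had 46, 41 and 15 counts. Relative to day 0, 1 gene was past 2-fold higher and 1 lower at day 3, where 36.8% of genes were past 2-fold, and 1 higher and 3 lower at day 5, where 42.4% were, 23.2% higher and 19.2% lower. Between F/A day 5 and F/A day 3, 1 gene was past 2-fold higher and 2 lower, where 27% of all genes were past 2-fold. L-Pro day 5 against F/A day 5 had 6 genes past 2-fold higher and 1 lower, where 21.7% of all genes were, with Id1 9.56-fold and Id4 9.46-fold higher in L-Pro day 5. Early mesoderm markers summed to 82.2 CPM in L-Pro day 5, where 1 of the 4 was at 0, 6.48 at day 0, 34.2 at F/A day 3 and 975 at F/A day 5, and pluripotency markers to 1562, 3906, 1887 and 1215 CPM, their part being not tested. Other pathway genes differed between these libraries as well. Tbx3 stood at 2.34 CPM in L-Pro day 5, 207 at day 0, 1.55 at F/A day 3 and 0.609 at F/A day 5, Fst at 50.5, 2.08, 72.1 and 362 CPM in the same libraries, and Skil at 269, 102, 323 and 230 CPM. Nog had 211 counts in L-Pro day 5, 0 at day 0, 14 at F/A day 3 and 233 at F/A day 5.

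Set side by side, the 2 experiments gave similar values for Bmp4 after L-proline and different ones for the Id genes. The log2 change against cells grown with vitamin C was -2.61 in experiment A and -2.03 in experiment B for Bmp4. It was 2.59 and -0.06 for Id1, 4.87 and 0.37 for Id2, 1.93 and 0.13 for Id3, and 1.66 and -1.51 for Id4. For F/A day 5 the values were -1.46 and -2.16 for Bmp4, -2.04 and -1.83 for Smad7, and -1.58 and -3.45 for Id4. They were -0.66 and -2.09 for Id1, -0.14 and -1.35 for Id3, and 2.92 and -0.03 for Id2. The interval of Id3 in experiment A was -0.32 to 0.04. Between F/A and L-Pro on day 5, both experiments had Id1 lower in F/A (log2 differences -3.26 in experiment A and -2.03 in experiment B), and Id4 (-3.24 and -1.94), Id3 (-2.07 and -1.48) and Smad7 (-1.51 and -1.52) likewise. Id2 (-1.94 and -0.41) and Msx2 (-2.01 and -1.51) were also lower in F/A in both, though not called in experiment B. Smad6 was higher in both, likewise without a call (0.52 and 0.36). Bmp4 differed in sign, at 1.15 in experiment A and -0.13 in experiment B, and so did Bambi, at 0.20 and -0.28. The experiments differ in the vitamin C dose, the reporter population, RNA extraction and counting, and in whether the vitamin C cells were taken at the start or after 5 days, and these cannot be told apart.

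**Figure D5:**
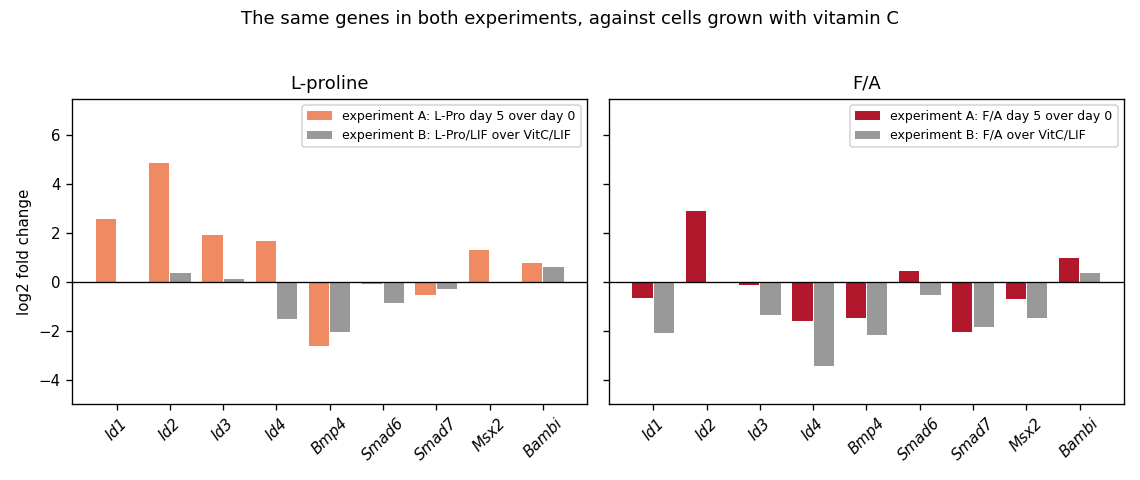
Log2 change of each gene against cells grown with vitamin C, in experiment A (coloured bars, 1 library each) and experiment B (grey bars, 2 libraries each), for L-proline on the left and F/A on the right. Bmp4, Smad7, Bambi, Id3 and Msx2 point the same way in both experiments in each panel. After L-proline, Id3 and Msx2 do so in experiment B by only 0.13 and 0.02. Id2 reaches 4.87 after L-proline in experiment A and 0.37 in experiment B.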

How the data were processed

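Experiment B files held, per the file headers, gene expression on a natural log scale in FPKM units, effective lengths and unique hits; experiment A files held deposited raw counts per Ensembl gene. Per the submitters' processing notes, TopHat2 2.0.13, HTSeq 0.6.1p1, Bowtie, DESeq and CASAVA were used, with builds mm9 and NCBIM37; strand is not given in the sources used here. Counts for experiment B were estimated as expression times effective length times mapped fragments and rounded; these estimated counts came to between 98.73% and 99.48% of the mapped fragments. Such counts from the authors' FPKM values carry the authors' sharing of ambiguous fragments. All 10 libraries entered 1 model of medium in edgeR 4.0.16 (filterByExpr, TMM, quasi-likelihood F test, Benjamini-Hochberg over 16033 genes), with DESeq2 1.42.0, RLE scaling, no filter, unique hits, a replicate block, fits of 2 media and left-out libraries as alternatives. The model was tested on simulated data. Experiment A had single libraries: exact 95% Poisson intervals and TMM-scaled folds were computed, genes under 10 counts in all 4 libraries were left out of the background, and no test was made. A fold against 0 used a floor of 3 counts over the group. Replicates of a medium differed beyond sampling noise (chi-square over degrees of freedom 24.5 to 55.8). The 9 genes, the 61 further genes and the markers were chosen with earlier results of these data known. Beside the 9, at most 4 called genes of the largest change and 2 uncalled of the highest level were eligible to be named per list and comparison; in experiment A, the other genes were named after their values were seen. The 8 columns of 2 tables of the whole series were not used. One gene among those most like Id1 is not reported here.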

Additional observations from a re-analysis of the deposited data

How the results depend on the processing

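The 9 genes gave the same count of calls within 1.5 times in every alternative run for F/A over FBS/LIF, 2i/LIF over FBS/LIF, L-Pro/LIF over VitC/LIF and F/A over L-Pro/LIF. For VitC/LIF over FBS/LIF, 0 genes were called, against 2 with DESeq2 and 1 each with RLE scaling, without the filter and on unique hits. For L-Pro/LIF over FBS/LIF, leaving out 1 library gave between 0 and 1 called genes in place of 2. The cause was not tested.

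Directions that turned belonged to changes that were not called. Without the filter, the log2 change of F/A over FBS/LIF was -0.026 for Smad6 and -0.032 for Bambi. With 1 library left out, log2 changes ran between -0.13 and 0.19 for Smad6 and between -0.30 and 0.33 for Bambi in F/A over FBS/LIF. In L-Pro/LIF over FBS/LIF they ran between -0.40 and 0.11 for Id3, -0.0090 and 0.29 for Smad7, and -0.019 and 1.18 for Msx2. In 2i/LIF over FBS/LIF they ran between -0.12 and 0.40 for Id3 and between -0.0046 and 0.54 for Bambi, and in VitC/LIF over FBS/LIF between -0.17 and 1.23 for Msx2. In L-Pro/LIF over VitC/LIF they ran between -0.31 and 0.24 for Id1, -0.066 and 0.29 for Id3, and -0.72 and 0.89 for Msx2.

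Replicate numbers were not taken as pairs, since the labels give them no shared batch and not every pair of media had a positive correlation of replicate differences, which lay between -0.19 (F/A with FBS/LIF) and 0.65 (L-Pro/LIF with VitC/LIF) over 7316 genes. As a hint from the data, it was over 0.1 in 5 of the 6 pairs of media with LIF, and effective lengths were longer in replicate 2 of every medium, by 39.4 to 54.1 bases in the median against FBS/LIF replicate 1. Adding the replicate number as a block lowered edgeR's common BCV (the spread between libraries beyond counting) to 0.189, against 0.238 without it. In that fit 6, 2, 5, 0, 3 and 4 of the 9 genes were called for F/A, L-Pro/LIF, 2i/LIF and VitC/LIF over FBS/LIF, L-Pro/LIF over VitC/LIF and F/A over L-Pro/LIF, and the log2 change of Msx2 in L-Pro/LIF over VitC/LIF turned to -0.0056.

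Over all genes, calls for VitC/LIF over FBS/LIF numbered 108, against 432 with DESeq2, 263 without the filter, 243 on unique hits, 61 in a fit of the 2 media, and 6 to 12 with 1 library left out. For F/A over L-Pro/LIF they numbered 3529, against 729 in a fit of the 2 media and 752 to 6296 with 1 library left out, and for F/A over FBS/LIF 7440, against 4470 and 4345 to 8464. With 1 library left out, L-Pro/LIF over FBS/LIF had 2002 to 2238 in place of 3853, 2i/LIF over FBS/LIF 2932 to 3298 in place of 4867, and L-Pro/LIF over VitC/LIF 2860 to 3057 in place of 4780. The leave-outs of the pathway lists were chosen after seeing the data. A repeat of experiment A on the combined count table was not run. Depth limits Msx2, and Id4 in F/A, most.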
